A study of Fukomys damarensis and Heterocephalus glaber and Mus musculus with 160 samples.

Results

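Some stretches of the genome counted as a promoter by their marks in one tissue and as an enhancer, not a promoter, in the other. In liver and heart of 4 rodents, 10890 of 147423 promoter regions were of this kind. Of these, 2227 were among the 70083 liver promoters, where the same place was an enhancer in heart, and 8663 were among the 77340 heart promoters, where it was an enhancer in liver. They were chosen by the presence and overlap of peaks of the 3 marks, in each species apart. In each tissue and for each histone mark, the peaks that overlapped a peak of another library by at least 50% of the shorter were merged into regions seen in 2 or more libraries. A promoter was such a region of H3K27ac that overlapped H3K4me3 by the same measure, and an enhancer was one of H3K4me1 that did not. A member of the set was a promoter of one tissue that overlapped an enhancer, and no promoter, of the other.

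The study compared histone marks in adult, wild-type liver and heart of mice, guinea pigs and 2 African mole-rats, the naked and the Damaraland mole-rat, by chromatin immunoprecipitation and sequencing, which pulls down DNA bound to a modified histone or to a factor. The 99 histone peak lists fell into 24 groups of 2 to 6 libraries, 1 group for each species, tissue and mark. The naked mole-rats were 5 males aged 13 to 17 months. The Damaraland mole-rats were 6 animals with estimated ages of 36 to 48 months, all male except DMR6. There were 3 male guinea pigs of 2.3 months, and 16 male C57BL/6J mouse samples of 2 months. One of the mouse samples pooled tissue from 3 animals and was counted as 1 library. A further 16 lists hold binding sites of liver transcription factors in the 2 mole-rats, and 1 holds sites of the heart factor TBX5 in DMR6. Only 7 animals, 2 of each mole-rat and the 3 guinea pigs, had all 3 marks in both tissues. No mouse gave lists of both tissues, and the mouse heart marks came in part from different mice. In mice, a difference between tissues therefore cannot be told apart from one between animals.

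H3K4me3, trimethylation of lysine 4 on histone H3, is laid down at the start sites of transcribed genes, while H3K4me1, the form with a single methyl group, spreads over enhancers and the flanks of promoters. H3K27ac, acetylation of lysine 27, marks both kinds of element when they are active. Enhancers and promoters share many features: enhancers can be transcribed at a low level, some promoters act as enhancers of other genes, and some genes have alternative start sites that are used in 1 tissue.

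The histone lists held between 14782 and 253457 peaks. Their read depths are not in the peak lists, so depth behind each peak is unknown and only peak numbers could be set equal. By the share of bases in common, 98 of 99 lists were nearer to the lists of their own tissue than to those of the other. The exception was a mouse heart H3K4me3 list, and it is called the library labelled heart 6837 throughout. It shared more with liver (Jaccard index, the shared bases over all bases covered, 0.550) than with heart (0.489). It covered 21.8% of the mouse regions with H3K27ac in liver alone, against 0.403% to 2.32% in the other 5 heart H3K4me3 lists and 5.43% to 7.52% in the liver H3K4me3 lists. Another 6 lists stood apart in size or overlap: liver H3K4me3 of NMR30 (253457 peaks), heart H3K4me3 of NMR34, heart H3K27ac of DMR1 (51446 peaks), heart H3K4me3 (20803 peaks) and H3K4me1 (32893 peaks) of DMR11, and heart H3K4me1 of the mouse pool (20521 peaks). Counts, tests and H3K4me3 folds are given with and without these lists. The heart H3K4me1 lists of mouse 33017 and DMR1 carry a name tag that the other lists lack and whose meaning is not stated, so they may have been made differently.

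Liver promoters that were heart enhancers numbered 719 of 23294 in naked mole-rats, 643 of 18435 in Damaraland mole-rats, 278 of 13597 in guinea pigs and 587 of 14757 in mice. Values below that name no species follow this order. The shares were 3.09%, 3.49%, 2.04% and 3.98% of liver promoters, with 95% Wilson intervals of 2.87% to 3.32%, 3.23% to 3.76%, 1.82% to 2.30% and 3.67% to 4.31%. Heart promoters that were liver enhancers numbered 884 of 19172, 3227 of 22730, 2922 of 17838 and 1630 of 17600. These were 4.61%, 14.2%, 16.4% and 9.26% of heart promoters, with intervals of 4.32% to 4.92%, 13.7% to 14.7%, 15.8% to 16.9% and 8.84% to 9.70%. The intervals cover counting error only. Since the rule sets these numbers, they describe the lists and were not tested.

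The heart-promoter direction was the larger in each species as deposited, by 1.23 times in naked mole-rats, 5.02 times in Damaraland mole-rats, 10.5 times in guinea pigs and 2.78 times in mice. This order did not hold in every species once the lists were cut to the same number of peaks per species and mark. With equal numbers, there were 397 liver-promoter and 370 heart-promoter members in naked mole-rats and 320 and 278 in mice, so that the order turned in both. In Damaraland mole-rats the numbers were 260 and 719, and in guinea pigs 517 and 1525, with heart still the larger. Over all settings and left-out libraries, heart had more members in 34 of 34 settings in Damaraland mole-rats (ratio 1.32 to 6.81), 27 of 27 in guinea pigs (2.95 to 16.1), 29 of 34 in naked mole-rats (0.546 to 2.73) and 36 of 37 in mice (0.869 to 21.7). The 2 liver H3K4me3 lists of Damaraland mole-rats could not be left out in turn, since a region had to be seen in 2 libraries.

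**Figure D1:**
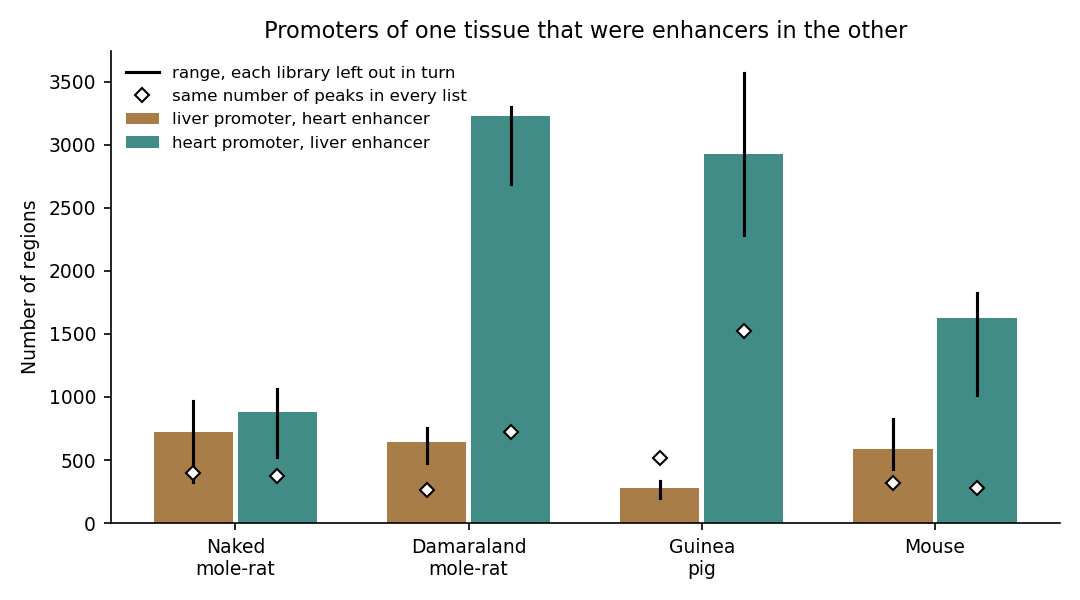
Number of promoters of one tissue that were enhancers in the other, by species (horizontal axis) and direction (colour). Bars give the counts with all libraries. Black lines give the lowest and highest count when each library was left out in turn, except the 2 Damaraland mole-rat liver H3K4me3 lists. Diamonds give the count with the same number of peaks in every list. The heart bar exceeds the liver bar in 4 of 4 species. The heart diamond exceeds the liver diamond in Damaraland mole-rats and the guinea pig.

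Single libraries moved some of these counts. The naked mole-rat liver count fell to 330 without the heart H3K4me1 list of NMR30 and to 453 without that of NMR31, and its heart count fell to 528 without the heart H3K4me3 list of NMR31. The mouse heart count fell to 1019 without the heart H3K4me3 list of the pool. Without the library labelled heart 6837 the mouse counts were 758 in the liver-promoter direction and 1389 in the other. Without all 7 lists that stood apart, the liver-promoter and heart-promoter counts were 683 and 891 in naked mole-rats, 630 and 3224 in Damaraland mole-rats and 754 and 1389 in mice. In mice, 361 of 587 liver-promoter members (61.5%) met a heart H3K4me3 peak in that library and in no other, and 74 (12.6%) in the pool alone. Of the 3227 heart-promoter members of Damaraland mole-rats, whose liver had 2 H3K4me3 lists, 1120 (34.7%) met a liver H3K4me3 peak in DMR4 and not in DMR1, so their absence from the liver consensus rested on 1 list. When each animal with all marks was taken by itself, NMR31 had 586 liver-promoter and 1646 heart-promoter members, NMR32 had 791 and 884, and DMR1 had 757 and 1774. DMR4 went the other way, with 2045 and 1370. GuineaPig7 had 406 and 3786, GuineaPig8 had 369 and 3119, and GuineaPig9 had 405 and 3090. Heart thus led in 6 of 7 animals. Between 24.5% and 71.6% of the members of 1 animal were also members when the libraries were combined.

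Most promoters were promoters in both tissues. These made up 70.1%, 83.6%, 88.6% and 85.5% of liver promoters and 83.4%, 68.3%, 74.4% and 71.2% of heart promoters. Of the promoters that were not promoters in the other tissue, the members made up 10.3%, 21.3%, 17.9% and 27.5% in liver and 27.8%, 44.8%, 64.1% and 32.1% in heart. In guinea pigs, a heart promoter that was not a liver promoter in these lists was thus a liver enhancer in the majority of cases. The guinea pig H3K4me3 lists were shorter in liver, at 14782 to 16530 peaks, than in heart, at 21481 to 24629. With equal peak numbers the heart-promoter members fell from 2922 to 1525, and this share was not computed again. A further class, with no region of any of the 3 marks at the place in the other tissue, held 3599, 1466, 765 and 1077 liver promoters and 906, 2189, 853 and 1271 heart promoters.

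Few members lay close to the limit of overlap with the enhancer. The share of members found again under other settings is given further below. The overlap with the enhancer was between 50% and 55% of the shorter region in 7, 6, 0 and 5 liver-promoter members and in 9, 33, 41 and 19 heart-promoter members. Just outside, 16, 5, 3 and 14 liver promoters and 6, 26, 33 and 11 heart promoters overlapped an enhancer by 45% to 50%. The shorter region lay wholly inside the longer in 67.5%, 80.9%, 87.1% and 75.6% of liver-promoter and 64.4%, 61.8%, 57.8% and 69.4% of heart-promoter members.

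A promoter region of H3K27ac can be wide, so it was asked whether its H3K4me3 part was itself under the enhancer of the other tissue. That was so in 73.7%, 73.3%, 55.04% and 74.3% of liver-promoter members and in 78.7%, 87.8%, 91.2% and 88.9% of heart-promoter members. In the guinea pig liver direction, the H3K4me3 region shared at least a base with a heart enhancer in 68.3% of the 278 members. In the rest the enhancer lay beside it. No base was shared with a peak of any H3K4me3 library of the other tissue in 59.2%, 69.4%, 78.4% and 11.2% of liver-promoter members, and in 41.6%, 55.04%, 76.1% and 71.2% of heart-promoter members. The low mouse liver value rested on the library labelled heart 6837: in the other 5 lists, 427 of 587 members (72.7%) shared no base with a heart H3K4me3 peak. Some members shared a base with a consensus H3K4me3 region of the other tissue. These were 10.6%, 8.24%, 10.8% and 10.2% of liver-promoter members and 15.7%, 4.43%, 2.57% and 8.59% of heart-promoter members. The nearest promoter of the other tissue on the same scaffold lay at a median distance of 10360, 13418, 22626 and 11467 bases from liver-promoter members and 12827.5, 13412, 24256 and 18786 bases from heart-promoter members. It was within 5 kb of 38.2%, 30.9%, 19.1% and 29.5% of the first and 36.3%, 34.4%, 24.1% and 25.5% of the second. One member met 1.25, 1.51, 1.51 and 1.33 enhancers on average in the liver direction and 1.24, 1.16, 1.09 and 1.205 in the heart direction.

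Liver-promoter members were wide stretches of H3K27ac. Their median width was 2226 bases in naked mole-rats (quartiles 1057 and 4026), 3871 in Damaraland mole-rats (2161 and 5945.5), 5414 in guinea pigs (3202.75 and 9183.75) and 3125 in mice (1549.5 and 5328.5). Liver promoters of both tissues had medians of 1030, 1210, 1986 and 1478.5 bases. Averaged over species, the members were 2.55 times as wide. The H3K4me3 region under them was not wider: its median was 626, 1021, 1189 and 871.5 bases in members and 1199, 1092, 1250 and 1693 in promoters of both tissues. Taking the promoter from the H3K4me3 region instead of the H3K27ac region turned the ratio of widths to 0.665.

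Heart-promoter members were of ordinary width, at medians of 1224, 1179, 1104.5 and 1621 bases against 1056, 1261, 1469 and 1782 in heart promoters of both tissues. The mean ratio of 0.939 turned to 1.03 with an overlap of 80% or with peaks of −log10 q of at least 4. Their H3K4me3 regions were narrower again, at 734.5, 622, 883 and 995 bases against 1148, 1152, 1500 and 1990. The enhancer regions in the other tissue had medians of 955, 919.5, 876 and 1142 bases in the liver direction and 832, 862, 1090.5 and 1068 in the heart direction.

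**Figure D2:**
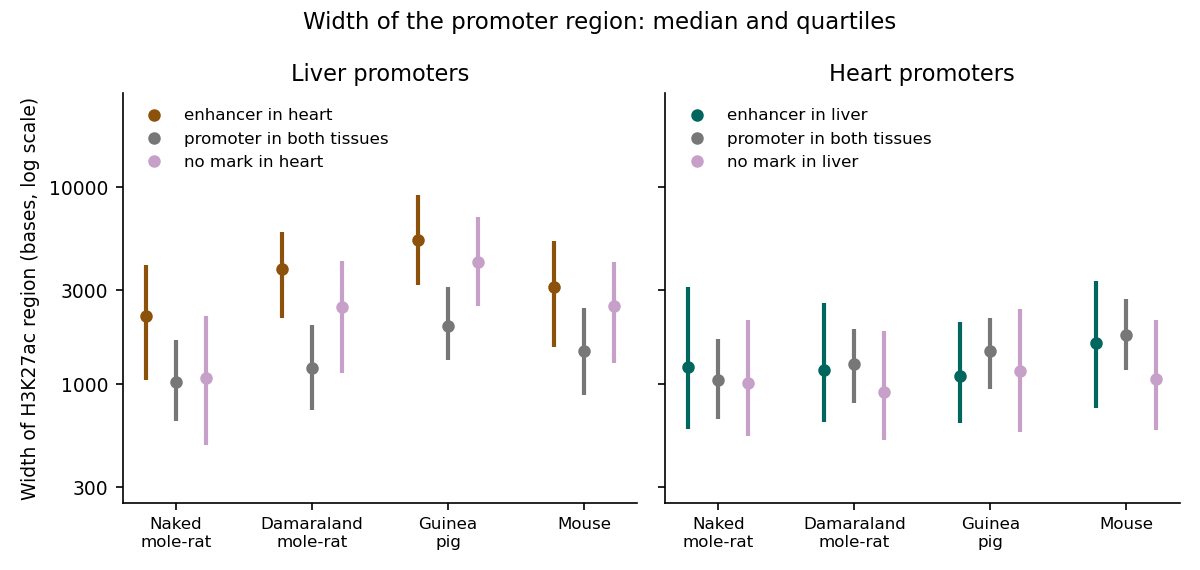
Width of the promoter's H3K27ac region in bases on a log scale, by species, for liver promoters (left) and heart promoters (right). Points are medians and bars the quartiles; liver promoters that were heart enhancers (brown) have a higher median than promoters of both tissues (grey) in 4 of 4 species, while the medians of heart-promoter members lie above the grey point only in naked mole-rats.

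H3K4me3 was low at members in the tissue where they were promoters. Fold enrichment, the authors' value for each peak over its local background, was taken as the median over regions in each library. In the naked mole-rat liver the members had 9.12 ± 1.68 (SD, n = 5) against 43.6 ± 16.3 at promoters of both tissues. The Damaraland mole-rat liver libraries gave 9.30 and 19.3 at members, against 20.2 and 45.9. In the guinea pig liver the values were 10.8 ± 2.28 against 24.0 ± 5.74 (SD, n = 3), and in the mouse liver 8.65 ± 0.421 against 57.7 ± 2.11 (SD, n = 4). The 4 mouse liver libraries lay between 8.22 and 9.04 at members and between 55.8 and 60.3 at promoters of both, with no overlap.

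The heart gave the same picture. Members had 8.14 ± 3.25 against 23.2 ± 16.8 in naked mole-rats (SD, n = 4), 8.89 ± 2.44 against 32.5 ± 20.1 in Damaraland mole-rats (SD, n = 5), 14.3 ± 0.633 against 59.9 ± 6.09 in guinea pigs (SD, n = 3) and 8.80 ± 1.78 against 52.0 ± 12.1 in mice (SD, n = 6). The H3K4me3 fold was lower at members than at promoters of both tissues in 14 of 14 liver and 18 of 18 heart libraries. Promoters with no mark in the other tissue were also below promoters of both, in 14 of 14 and 18 of 18 libraries, at 10.4, 14.3, 12.5 and 10.8 in liver and 8.95, 8.66, 9.54 and 8.45 in heart. They lay above the members in 13 of 14 liver libraries and in 7 of 18 heart libraries, and in the guinea pig heart they were the lower class. Without the lists that stood apart, members had 9.82 ± 0.738 against 49.9 ± 9.63 in naked mole-rat liver (SD, n = 4) and 8.91 ± 3.51 against 28.2 ± 16.5 in its heart (SD, n = 3). The heart values were then 9.33 ± 2.58 against 37.1 ± 19.9 in Damaraland mole-rats (SD, n = 4) and 9.13 ± 1.77 against 54.7 ± 11.2 in mice (SD, n = 5). H3K4me3 and H3K27ac of the promoter tissue took part in the choice of members, so these values carry no test.

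H3K27ac went in different directions in the 2 tissues. At liver-promoter members its fold was 16.0 ± 1.47, 25.6 ± 1.65, 23.2 ± 2.56 and 22.6 ± 0.873 (SD), against 15.0, 14.6, 21.2 and 15.6 at liver promoters of both tissues, and it was higher at members in 16 of 17 libraries. At heart-promoter members it was 8.81, 8.54, 9.36 and 8.22, against 11.3, 11.2, 17.2 and 13.9, and it was lower at members in 16 of 17 libraries. The median ratio was 1.34 in liver and 0.668 in heart. Against promoters of both tissues, liver-promoter members thus had wider H3K27ac regions with a higher fold, and a lower H3K4me3 fold. Heart-promoter members had a lower fold in both marks. A region's fold is that of its highest peak, and a wide region can hold more peaks. It also has more room to meet an enhancer. The effect of width on the folds and on the choice of members was not tested. Promoters with no mark in the other tissue shared part of this pattern of width and fold. In liver their median width was 1070, 2468.5, 4165 and 2491 bases, between the members and the promoters of both in each species, and their H3K27ac fold of 11.4, 20.1, 20.6 and 19.6 was above that of promoters of both in 10 of 17 libraries. In heart their H3K27ac fold was 7.31, 6.98, 8.48 and 6.83. They were below the members in H3K27ac in 17 of 17 liver and 17 of 17 heart libraries.

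Some regions met every library of the rule, and they were picked by the same marks as the members. A member qualified when it had a peak in each H3K4me3 and H3K27ac library of its promoter tissue and in each H3K4me1 library of the other, and no base of any H3K4me3 peak there. These were 85 liver-promoter and 40 heart-promoter members in naked mole-rats, 84 and 138 in Damaraland mole-rats, 117 and 1255 in guinea pigs and 4 and 100 in mice. The 4 in mouse liver became 41 when the library labelled heart 6837 was left out. In each species and direction the 3 with the highest mean H3K4me3 fold are used below as examples. They are extremes and not typical members. The median of their mean folds was 70.3 in liver and 49.9 in heart, above the member folds given earlier. The enhancer can cover only a part of the promoter region. The genes near them are not given, since no annotation of these genome builds was used here.

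The first naked mole-rat liver example is scaffold JH171235.1:221461-226152 (HetGla_1.0), a region of 4692 bases. Its H3K4me3 fold in liver was 87.3 in NMR32, 135 in NMR35, 126 in NMR34, 110 in NMR31 and 48.8 in NMR30, and none of the 4 heart H3K4me3 libraries had a peak. All 5 liver libraries were high, the lowest being that of NMR30. In heart the place had H3K4me1 at 4.42 ± 1.57 (SD, n = 3) and H3K27ac at 6.76 ± 1.51 (SD, n = 3), and in liver 7 of 8 factor lists had a peak there. The first heart example is scaffold JH173456.1:147674-152484, with H3K4me3 fold in heart of 35.7, 59.6, 29.5 and 15.5. In liver it carried H3K4me1 at 12.1 ± 2.05 (SD, n = 5), which was the strongest enhancer mark among the 24 examples, and H3K27ac at 13.6 ± 5.46 (SD, n = 5).

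In Damaraland mole-rats (build DMR_v1.0), the first liver example spans 13285 bases at scaffold KN121670.1:5098814-5112098. The H3K4me3 fold was 71.6 in one liver library and 111 in the other. In heart it had H3K4me1 at 5.61 ± 1.45 and H3K27ac at 13.7 ± 6.73 (SD, n = 5 each), so that the region had H3K27ac in both tissues. The first heart example, KN121537.1:2958651-2973198, spans 14548 bases and had H3K4me3 at 139, 25.4, 71.1, 58.7 and 25.4 in the 5 heart libraries. In liver it had H3K4me1 at 5.74 ± 1.94 (SD, n = 5) and a peak of H3K27ac in none of 5 libraries. The liver enhancer it met lay at 2970963-2972128, near the end of the region. This heart example thus had H3K27ac peaks in heart and none in liver, and there was a peak of TBX5 in heart and of RXRA and CEBPA in the liver of DMR4.

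The first guinea pig liver example (build Cavpor3.0) is DS562908.1:12481666-12493298, with H3K4me3 at 94.5, 67.7 and 46.6 in liver and H3K4me1 at 9.95 ± 2.99 and H3K27ac at 20.1 ± 9.39 in heart (SD, n = 3 each). The first heart example is DS562886.1:6079144-6086299, with H3K4me3 at 100, 115 and 105 in heart, the highest mean of the 24. In liver it had H3K4me1 at 8.60 ± 0.96 (SD, n = 3) and H3K27ac in none of 3 libraries, and the nearest liver promoter was 624521 bases away.

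In mice (build GRCm38) the first liver example, chr17:28278555-28281535, had H3K4me3 at 27.6, 13.9, 19.6 and 30.5 in liver, and H3K4me1 at 8.27 ± 1.87 (SD, n = 5) in heart. The first heart example, chr12:37104993-37113224, had H3K4me3 at 50.1 ± 9.27 (SD, n = 6) in heart and H3K4me1 at 5.99 ± 3.38 (SD, n = 4) in liver, with liver H3K27ac in none of 4 libraries. With the library labelled heart 6837 left out, the first mouse liver example was chr11:102141895-102148533, with an H3K4me3 fold of 116 ± 21.0 (SD, n = 4) in liver. In the library labelled heart 6837 that place had a fold of 17.5.

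Over the 12 liver-promoter examples, H3K27ac was found in every heart library in 6, in some in 2 and in none in 4. Over the 12 heart-promoter examples it was in every liver library in 2, in some in 3 and in none in 7. H3K4me1 was also present in the promoter tissue itself in every library in 11 of 12 liver examples and in 3 of 12 heart examples. Among the mole-rat examples, the 6 of liver met 1 to 9 factor lists with a median of 7, and the 6 of heart met 0 to 3 with a median of 2.5.

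H3K27ac in the tissue where a member was an enhancer played no part in the rule, except that promoters of that tissue were left out. It was compared with enhancers of the same tissue that overlapped no promoter of either tissue, library by library. The classes were not filtered alike. The member region had to miss the promoters of that tissue, while the enhancer region it met did not. The effect of this on these shares, and on those of held-out H3K4me3 in the other tissue below, was not tested. P-values here and below measure the spread between libraries, from two-sided sign-flip permutation tests with the Benjamini-Hochberg adjustment over 9 tests. In heart, the enhancer regions of liver-promoter members had an H3K27ac peak in 69.9%, 66.8% and 67.4% of cases in the 3 naked mole-rat libraries, against 50.3%, 51.7% and 50.3% at other heart enhancers. In Damaraland mole-rats the values were 64.6% against 49.8% in DMR2, 64.8% against 47.7% in DMR4, 22.6% against 20.9% in DMR1, 55.3% against 39.8% in DMR3 and 50.8% against 35.1% in DMR11. The list of DMR1 was the low one in both columns, and within each library the members were higher.

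The guinea pig heart gave 49.9%, 53.4% and 44.4% against 42.5%, 47.7% and 38.4%, and the 6 mouse heart libraries 36.0% to 64.2% against 25.2% to 51.5%. Members were higher in 17 of 17 heart libraries, by 12.3 percentage points on the mean of the 4 species (permutation test, p = 2e-05, adjusted p = 2.57e-05). Enhancers in heart that were promoters in liver were thus acetylated more often than enhancers that were promoters in neither. They were also a little wider in 3 of 4 species, with a median of 876 bases in both classes in guinea pigs, and within windows of 500 bases the difference was 10.9 points.

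In liver, the enhancer regions of heart-promoter members had H3K27ac more often too. The 5 naked mole-rat libraries gave 37.6% to 52.9%, with a median of 43.3%, against 29.8% to 40.5%. The 5 Damaraland mole-rat libraries gave 43.6% to 54.8%, with a median of 48.5%, against 30.3% to 40.9%. The guinea pig gave 62.7%, 51.5% and 60.8% against 46.3%, 46.2% and 46.0%, with no overlap between the classes. The mouse gave 46.5%, 47.1%, 47.2% and 42.8% against 42.8%, 44.3%, 42.8% and 40.9%, a gap of 3.18 points in the mean.

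The mean over species was 9.01 points, positive in 17 of 17 libraries (permutation test, p = 2e-05, adjusted p = 2.57e-05). This result depended on the lists and the members. With no peak of any H3K4me3 library of the other tissue within 2 kb of a member it was 5.14 points (16 of 17). With the same number of peaks in each list the mean was −4.12 points (9 of 17 libraries positive, adjusted p = 0.246 by permutation test), made of 7.46 in naked mole-rats, −0.458 in Damaraland mole-rats, 2.36 in guinea pigs and −25.8 in mice. Without the library labelled heart 6837 it was 6.65 points (13 of 17, adjusted p = 0.00811 by permutation test), and in mice the members then lay below, at 36.8% ± 2.47 against 43.0% ± 1.39 (SD, n = 4).

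H3K4me1 in the promoter tissue was likewise outside the rule, but here too the classes were not filtered alike. Members had to meet an H3K4me1 region of the other tissue, while promoters of both tissues did not. The effect of this on the shares was not tested in either direction. Liver-promoter members held an H3K4me1 region of liver in 93.9%, 96.3%, 94.2% and 93.9% of cases, against 59.9%, 65.4%, 73.3% and 73.9% of liver promoters of both tissues. By library, members had a peak in 82.9% to 94.0% in naked mole-rats (against 44.3% to 62.3%), 91.4% to 97.0% in Damaraland mole-rats (48.4% to 64.2%), 95.0% to 95.7% in guinea pigs (72.8% to 78.7%) and 91.3% to 92.2% in mice (63.2% to 80.6%). The ranges did not overlap in any species. The mean difference was 29.6 points, positive in 17 of 17 liver libraries (permutation test, p = 2e-05, adjusted p = 2.57e-05). Members are wider, which raises the chance of meeting a peak, and in windows of 500 bases the difference was 31.0 points. With any shared base counted as overlap it was 14.2 points, again in 17 of 17 libraries.

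Heart-promoter members held H3K4me1 in heart less often than liver-promoter members did in liver, at 40.7%, 66.9%, 56.2% and 81.5%, against 20.5%, 47.4%, 38.6% and 60.9% of heart promoters of both tissues. The difference between tissues was not tested. In naked mole-rats the libraries gave 58.4%, 44.2% and 36.0% against 34.4%, 23.6% and 17.3%. In Damaraland mole-rats they ran from 30.5% in DMR11 to 69.3% in DMR2, with a median of 54.4%, against 21.8% to 53.0%. The guinea pig gave 53.2%, 57.0% and 63.5% against 42.2%, 44.5% and 44.8%, and the mouse 29.8% in the pool to 91.2% in 33017, against 20.6% to 71.7%. The ranges of the classes overlapped in Damaraland mole-rats and the mouse, and within each library the members were higher. The mean difference was 15.5 points in 16 of 16 libraries (permutation test, p = 2e-05, adjusted p = 2.57e-05). With the promoter taken from its H3K4me3 region it was 2.53 points and no longer passed (11 of 16, adjusted p = 0.145 by permutation test). With any shared base it was 5.53 points (12 of 16, adjusted p = 0.0259 by permutation test).

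**Figure D3:**
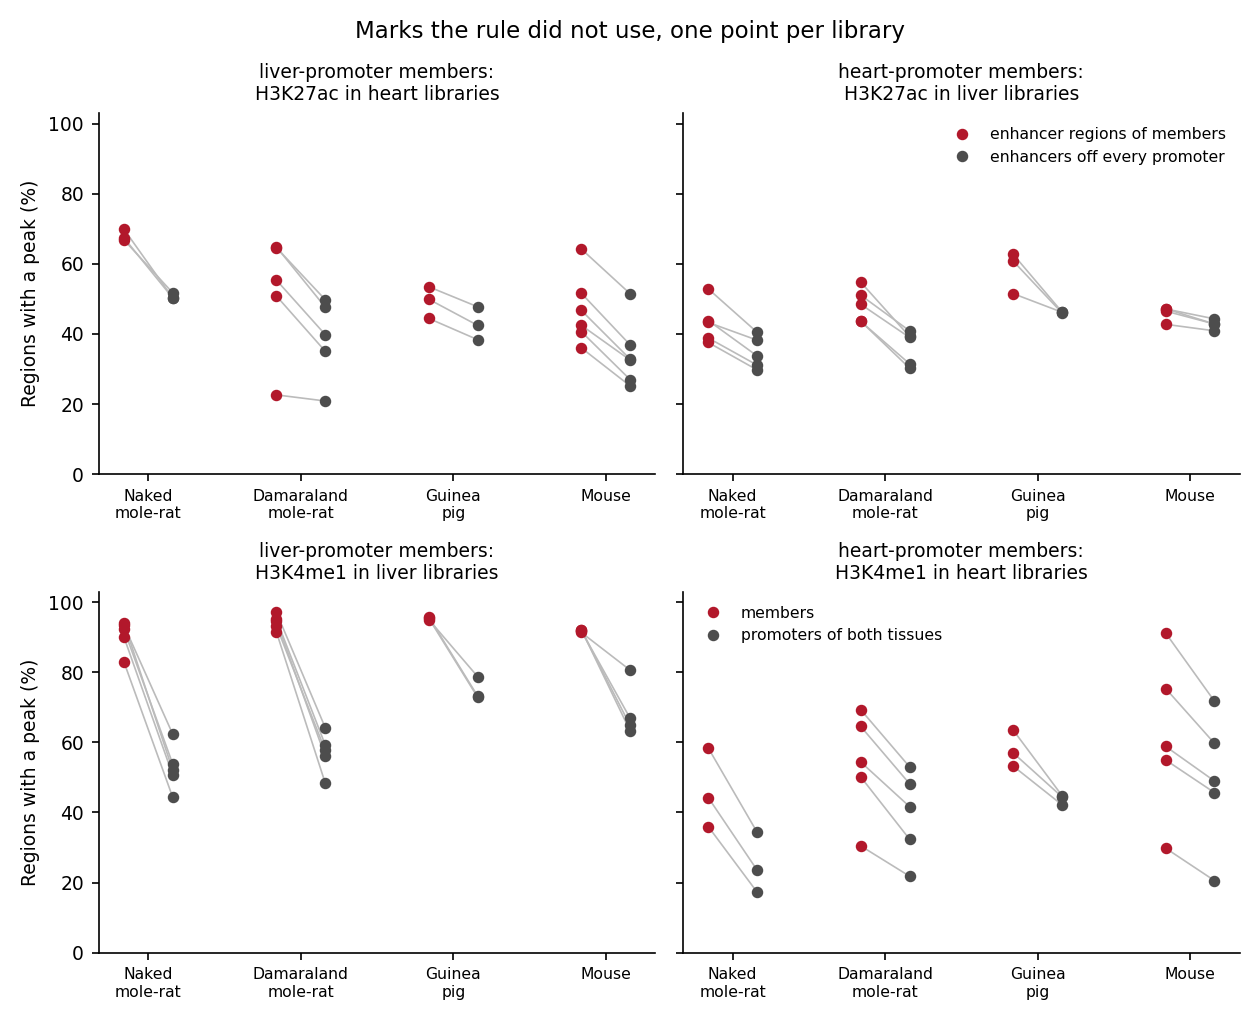
Share of regions with a peak, in percent, in each library (points), with lines joining the 2 classes of the same library. The upper panels show H3K27ac in the tissue where members are enhancers and the lower panels H3K4me1 in the tissue where they are promoters; the red point of members lies above the grey point in each of the 67 libraries drawn.

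Whether a place is free of H3K4me3 in the other tissue was then read in libraries that had not taken part in the choice. For this, each H3K4me3 library was left out, the members were rebuilt, and the left-out list was looked up. The heart H3K4me3 lists had a peak at the heart enhancers of liver-promoter members in 17.3%, 26.6%, 6.48% and 2.24% of cases in NMR35, NMR31, NMR32 and NMR34, against 3.09%, 3.44%, 0.592% and 1.52% at other heart enhancers. The Damaraland mole-rat lists gave 0.719% to 15.9%, with a median of 5.79%, against 0.148% to 3.34%. The guinea pig lists gave 7.05%, 5.33% and 10.4% against 1.22%, 1.27% and 2.26%. In mice, the library labelled heart 6837 gave 64.8% against 3.26% and the pool 32.4% against 10.2%, while the other 4 gave 1.16% to 3.77% against 0.242% to 1.57%.

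Members were higher in 18 of 18 lists, by 9.50 points on average (permutation test, p = 1e-05, the smallest that 100000 flips give, adjusted p = 2.57e-05), or 7.19 points without the library labelled heart 6837. In liver, the enhancers of heart-promoter members had held-out H3K4me3 in 6.85% to 28.1% in naked mole-rats, with a median of 15.8%, against 0.739% to 12.3%. The guinea pig gave 22.4%, 14.7% and 5.49% against 1.03%, 0.678% and 0.321%, and the mouse 14.5%, 7.79%, 8.94% and 10.9% against 1.55%, 0.790%, 0.528% and 1.35%. The mean difference was 11.8 points in 12 of 12 lists (permutation test, p = 0.00052, adjusted p = 0.00052). The Damaraland mole-rat liver, with 2 H3K4me3 lists, could not enter. For members with no peak of any used H3K4me3 library of the other tissue within 2 kb, the difference was 5.70 points in the liver-promoter direction (10 of 18 lists positive, adjusted p = 0.00668 by permutation test) and 4.88 points in the other (11 of 12, adjusted p = 0.00168 by permutation test). In most held-out lists the majority of the members' enhancers were without H3K4me3. With all members, more of them had it than other enhancers did in each list, which the stricter members showed only in part. Leaving a list out also changed the members. Without the pool, the mouse liver-promoter members numbered 827 against 587 with all lists. The effect of this on the held-out shares was not tested.

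In the promoter tissue, held-out H3K4me3 lists found fewer of the members than of the promoters of both tissues. Promoters of both tissues had to have H3K4me3 in each tissue, and members only in the promoter tissue. Members also had the lower H3K4me3 fold, as given above, so these shares are not separate evidence of weaker H3K4me3. The effect of the choice of classes on them was not tested. In liver the naked mole-rat lists gave 78.7%, 91.7%, 83.9%, 69.7% and 56.2%, against 97.2%, 99.0%, 98.5%, 96.5% and 81.6%. The guinea pig lists gave 96.4%, 90.7% and 85.9% against 99.4%, 98.5% and 94.8%, and the mouse lists 89.3%, 83.6%, 66.0% and 89.9% against 98.8%, 98.0%, 96.6% and 98.4%. Members were lower in 12 of 12, by a mean difference of −13.6 points (permutation test, p = 0.00052, adjusted p = 0.00052).

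In heart the spread between lists was larger. Members were found in 22.2% (NMR34) to 96.4% (NMR31) in naked mole-rats and in 29.3% (DMR11) to 93.9% (DMR2) in Damaraland mole-rats, where NMR34 and DMR11 are lists that stood apart. They were found in 94.0%, 95.1% and 96.5% in guinea pigs. The mouse lists gave 31.2% in 6839, 53.5% in the library labelled heart 6837, 54.7% in 6842, 56.0% in 33016, 64.4% in 17_36584 and 97.1% in the pool, against 89.3% to 99.2% at heart promoters of both tissues. The mean difference was −21.4 points, with members lower in 18 of 18 lists (permutation test, p = 1e-05, the smallest that 100000 flips give, adjusted p = 2.57e-05). In mice, heart-promoter members were thus met in 31.2% to 64.4% by 5 of 6 lists and nearly all by the pool.

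**Figure D4:**
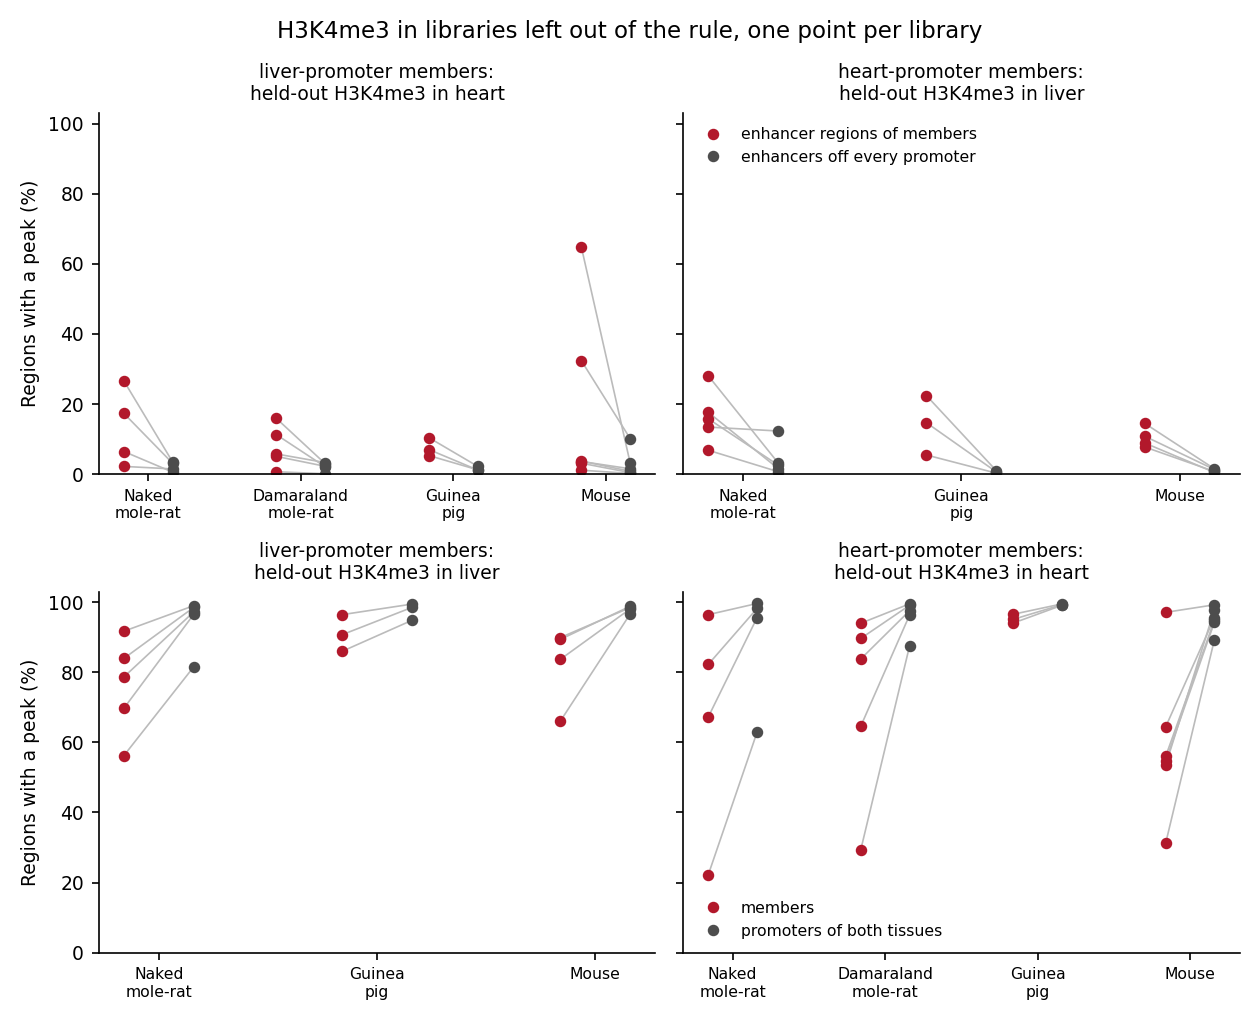
Share of regions with an H3K4me3 peak in a library left out of the choice, in percent, one point per library with lines joining the 2 classes. Upper panels: the tissue where members are enhancers, with members (red) above other enhancers (grey) in 30 of 30 lists; lower panels: the tissue where members are promoters, with members below promoters of both tissues in 30 of 30 lists.

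Liver factor binding separated the 2 directions. CEBPA, FOXA1, HNF4A and HNF6 are transcription factors that set up and maintain the hepatocyte program, and RXRA is the partner of many nuclear receptors of lipid and bile acid metabolism. The factor lists were made in liver of 4 animals and took no part in the rule. In naked mole-rats, CEBPA had a peak at 55.1% of liver-promoter and 23.0% of heart-promoter members in NMR30, and at 47.1% and 17.4% in NMR35. FOXA1 gave 28.5% and 8.94% in NMR30 and 33.5% and 8.03% in NMR35. HNF4A gave 16.1% and 4.30% in NMR30 and 43.5% and 13.3% in NMR35, and RXRA gave 38.1% and 7.58%, and 59.8% and 18.8%. The 4 factors thus shared the order, and levels varied between the 2 animals most for HNF4A.

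The mean gap was 42.5 points in the Damaraland mole-rat lists and 27.6 in those of naked mole-rats. This difference did not pass the adjustment (permutation test of species labels, adjusted p = 0.069), and only Damaraland mole-rats had an HNF6 list. CEBPA gave 40.6% of liver-promoter and 5.92% of heart-promoter members in DMR1 and 70.1% and 15.3% in DMR4. FOXA1 gave 34.7% and 3.22% in DMR1 and 37.8% and 4.49% in DMR4. HNF4A (DMR4) gave 70.5% and 18.8%, HNF6 (DMR1) gave 28.3% and 6.23%, and RXRA gave 59.1% and 7.59% in DMR1 and 82.6% and 22.3% in DMR4. The share was higher at liver-promoter members in 16 of 16 lists, by 35.0 points on the mean of both species (permutation test over lists, p = 2e-05, adjusted p = 2.57e-05). With flips made for each of the 4 animals as a block, the difference of 35.0 points had a permutation p of 0.125, the smallest that 4 animals allow. Liver-promoter members are wider: in windows of 500 bases the difference was 17.99 points, and in peaks per Mb of member region it was 141, with 16 of 16 lists positive in each. With the promoter taken from its H3K4me3 region the difference was 16.7 points, also in 16 of 16.

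**Figure D5:**
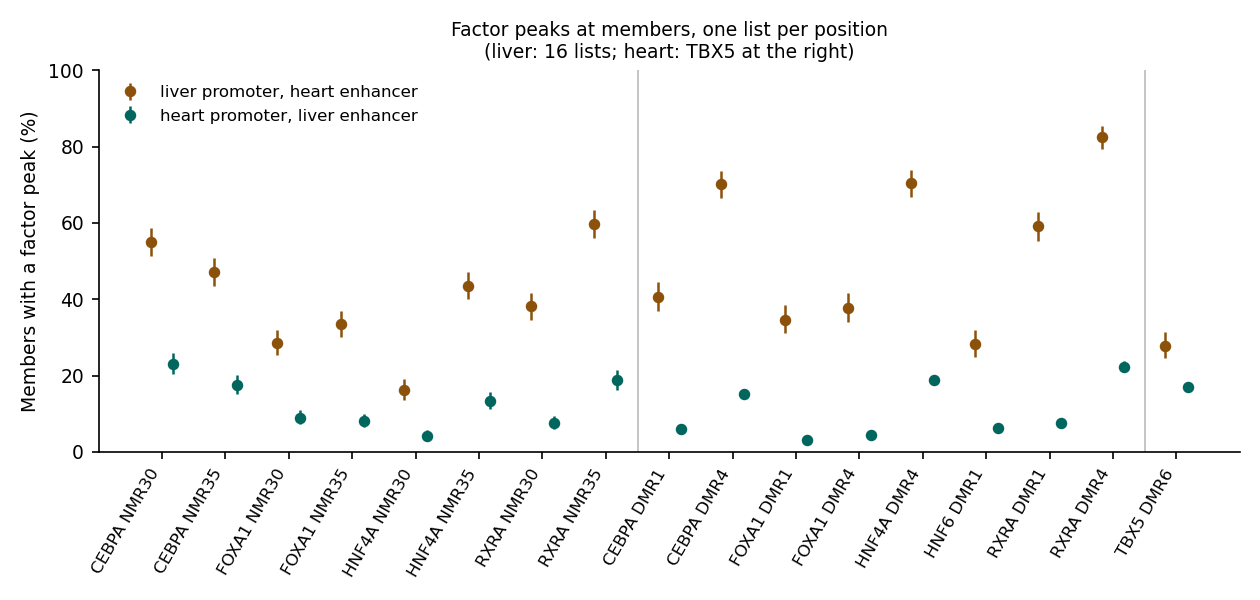
Share of members with a factor peak, in percent, in each of 17 lists, for liver promoters that were heart enhancers (brown) and heart promoters that were liver enhancers (green). Bars are 95% Wilson intervals, which cover counting error only; the brown point is the higher in 16 of 16 liver lists and, by share, in the TBX5 list.

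Set against the other liver promoters, liver-promoter members met factors often. The median over the 16 lists was 42.1% at members and 16.1% at liver promoters of both tissues, with members higher in 16 of 16, and 204 against 124 peaks per Mb, also in 16 of 16. Promoters with no mark in heart had shares below the members in 16 of 16 lists, but by peaks per Mb members were higher in 9 of 16 (median 204 against 181). These comparisons carry no test of their own. Heart-promoter members, which are enhancers in the liver that these lists come from, had a median of 8.48%, against 14.8% at heart promoters of both tissues. They were above the other liver enhancers in 8 of 16 lists, which were 7 of 8 in naked mole-rats and 1 of 8 in Damaraland mole-rats.

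Without all 7 lists that stood apart, the members of the rebuilt sets kept the sign and the call of the 9 tests. H3K27ac in the other tissue then gave 14.4 points for the liver-promoter direction and 6.64 for the heart-promoter direction, and H3K4me1 in the promoter tissue gave 29.9 and 15.7. Held-out H3K4me3 gave 8.93 and 13.1 points in the other tissue and −11.6 and −15.7 in the promoter tissue, and liver factors gave 35.3. The adjusted p-values of these permutation tests ran from 6e-05 to 0.00824, the last being that of H3K27ac in liver, where 13 of 17 lists were positive.

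Many liver-promoter members met more than 1 factor. At least 1 of the 4 lists of an animal had a peak at 64.5% of them in NMR30, 71.2% in NMR35, 74.5% in DMR1 and 88.5% in DMR4, and all 4 lists did at 7.23%, 18.2%, 8.24% and 30.6%. At liver promoters of both tissues the shares were lower, at 39.3%, 50.2%, 29.6% and 59.0% for at least 1 list and 1.78%, 2.97%, 1.08% and 4.09% for all 4. Heart-promoter members had 29.8%, 35.5%, 16.8% and 36.9% for at least 1 list, below the 39.2%, 50.7%, 27.1% and 58.9% of heart promoters of both tissues in each animal. All 4 lists met 1.24%, 2.26%, 0.279% and 1.55% of heart-promoter members.

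TBX5, a T-box factor of heart development, was measured in the heart of DMR6 in 1 list with 139418 peaks and no replicate. It had a peak at 27.8% of liver-promoter members, which are enhancers in heart, and at 17.0% of heart-promoter members. Promoters of both tissues had a TBX5 peak in 13.2% of liver and 13.8% of heart promoters, those with no mark in the other tissue in 14.4% and 15.7%, and heart enhancers off every promoter in 7.78%. By length the order of the members was the other way, with 70.01 peaks per Mb at the first and 106 at the second. In windows of 500 bases the shares were 7.62% and 9.92%. Since share and density differ in order, no direction is given for this factor.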

How the data were processed

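Only peak lists were used. Per the submitters' processing notes the authors called peaks with MACS2, 1 list per library; no version is stated, and the aligner is not given in the sources used here. Deposited columns are a score, a fold enrichment at the summit over local background, −log10 p and −log10 q; the smallest −log10 q kept by the authors is 1.30. Read depth is unknown, so a missing peak is not absence of the mark. Genome builds are those in the file names; the factor lists name only the species. Input and 4C libraries were not analysed here.

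The consensus regions, members and classes were computed with pandas 2.3.3, SciPy 1.17.1 and NumPy 2.4.6 under Python 3.11.15, and drawn with Matplotlib 3.10.9. A library's fold at a region is that of its highest peak there. Tests flip the sign of each library's difference of shares (100000 flips, seed 1, exact below 10 values, two-sided) with the mean of species means as the statistic and Benjamini-Hochberg adjustment over 9 tests at 0.05. The procedure was tested on simulated data. Alternatives were any shared base or 80% overlap, −log10 q of at least 4, equal peak numbers, the promoter from H3K4me3, windows of 500 bases, a clearance of 2 kb, a consensus of 3, animals as a block, and each library left out. The 2 Damaraland mole-rat liver H3K4me3 lists were not left out, and their consensus stayed at 2. With a library left out, members were rebuilt for the counts and kept for the tests. Leaving out the lists that stand apart was chosen after seeing the data.

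The members and lists were chosen with earlier results of these data known. Named regions are the 3 per species and direction with the highest mean H3K4me3 fold among members found in every library of the rule and free of H3K4me3 in the other tissue.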

Additional observations from a re-analysis of the deposited data

Results flagged for a closer look

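At the liver enhancers of heart-promoter members, the mouse liver H3K27ac list of 85924 found 42.8% of regions and lay apart from the other 3 lists, at 46.5% to 47.2%. Of 22 groups of libraries tested, this was the 1 above the limit for a single library far from the rest, and chance passes about 1 in 20 groups.

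The gap in H3K27ac between members' liver enhancers and other liver enhancers differed between species. It was largest in guinea pigs at 12.2 points and smallest in mice at 3.18 points (permutation test of species labels, p = 0.0062, adjusted p = 0.028, 10000 permutations). This order changed with the lists and was not tested again: with equal peak numbers the gap was 7.46 points in naked mole-rats, −0.458 in Damaraland mole-rats, 2.36 in guinea pigs and −25.8 in mice, and without the library labelled heart 6837 the mouse members lay below, at 36.8% against 43.0%.

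The gap in liver H3K4me1 between liver-promoter members and promoters of both tissues also differed between species, from 37.9 points in naked mole-rats to 20.4 in guinea pigs (permutation test, p = 0.0004, adjusted p = 0.0036). The members' mean shares were 90.5%, 94.2%, 95.3% and 91.8%, and those of promoters of both tissues 52.6%, 57.1%, 74.9% and 68.9%. With equal peak numbers the gap was 52.6, 58.6, 23.3 and 41.8 points, largest in Damaraland mole-rats, and was not tested again. The factor gap of 27.6 points in naked mole-rats and 42.5 in Damaraland mole-rats did not pass the adjustment (permutation test, p = 0.023, adjusted p = 0.069).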

How the results depend on the processing

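Peak lists limit these results: a missing peak may be a shallow library, and lists differ in size. These alternatives moved counts by over 1.5 times, liver promoters given before heart promoters. With equal peak numbers they were 397 and 370 in naked mole-rats, 260 and 719 in Damaraland mole-rats, 517 and 1525 in guinea pigs and 320 and 278 in mice. With no peak of any H3K4me3 library of the other tissue within 2 kb they were 314 and 188, 374 and 1243, 1861 for guinea pig heart, and 46 and 1000 in mice. With a consensus of 3 they were 324 and 440 in naked mole-rats, 1838 in Damaraland mole-rat heart, 176 in guinea pig liver and 931 in mouse heart. With −log10 q of at least 4, naked mole-rat liver had 371. The regions changed too. With 80% overlap, 65.1%, 76.7%, 79.1% and 78.7% of liver-promoter members were found again, and 64.1%, 72.4%, 73.5% and 74.9% of heart-promoter members. With equal peak numbers these were 48.5%, 25.7%, 79.5% and 30.7%, and 30.3%, 11.7%, 46% and 14.9%. They ran from 31.85% to 61.9% with a consensus of 3 and from 82.13% to 94.15% with any shared base. Leaving out 1 library, other than the 2 Damaraland mole-rat liver H3K4me3 lists, moved the count by over 1.5 times in 4 of 194 cases. These lay in both naked mole-rat directions and in mouse heart. The counts then ran from 330 to 967 and 528 to 1066 in naked mole-rats, 474 to 754 and 2691 to 3301 in Damaraland mole-rats, 197 to 331 and 2284 to 3566 in guinea pigs, and 430 (without the tagged H3K4me1 list of 33017) to 827 and 1019 to 1821 in mice.

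With the replicate block, that is animals with all marks in both tissues, naked mole-rat liver had 219 members and Damaraland mole-rat heart 637. No mouse had all marks. The tests with that block of 7 animals gave 10.7 and 9.55 points for H3K27ac and 38.6 and 24.3 for H3K4me1 (exact permutation test, adjusted p = 0.0281). Factor binding with the block of 4 animals stayed at 35.0 points and did not pass (exact permutation p = 0.125).

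Leaving the value of 1 library out of a test, with the members kept as they were, left direction and call unchanged in 143 of 143 cases. The libraries of each of the 9 tests shared 1 sign, so the direction could not turn here. This says nothing on how the members depend on a library. Of 82 other alternatives of these tests, 79 kept both, some with another size, as given with each result. H3K27ac in liver at heart-promoter members went to −4.12 with equal peak numbers, and heart H3K4me1 fell to 2.53 with the promoter taken from H3K4me3; the cause was not tested. The width ratio in the liver direction went from 2.55 to 0.665 with the promoter from H3K4me3, by construction, and in the heart direction from 0.939 to 0.530 with it, to 1.031 with 80% overlap and to 1.029 with −log10 q of at least 4.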

Other observations

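On the mouse X chromosome, looked at after the values were seen, members were few. Liver-promoter members were 3 of 392 promoters there (0.765%, 95% Wilson interval 0.261% to 2.23%), against 3.09% to 5.58% on the other chromosomes with at least 100 promoters. Heart-promoter members were 13 of 528 (2.46%, 1.44% to 4.17%), against 7.80% to 10.7%. The enhancers of the other tissue were also few on the X chromosome, at 1.51 heart enhancers per liver promoter against 3.53 to 6.11 elsewhere, and 1.21 liver enhancers per heart promoter against 2.77 to 4.26. Of X promoters that were not promoters in the other tissue, 11.1% of 27 in liver and 7.98% of 163 in heart were members, against 19.3% to 40.4% and 27.1% to 36.9% elsewhere. The mice used here were male. Chromosomes are not replicates, and this was not tested.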
